A study of Mus musculus with 88 samples.

Results

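Cluster 15 is a group of cells from mouse embryoid bodies (EBs, aggregates in which embryonic stem cells, ESCs, differentiate) that the study's own clustering placed in its ectodermal class and related to the future forebrain. Its members were taken by the cluster number in the deposited annotation at resolution 2.5, which divides the cells into 22 clusters, and 136 of the 4949 cells of the single-cell table carried it. The single-cell experiment had 16 libraries, 1 for each of 4 genotypes (WT and nulls of Mtf2, Jarid2 or Eed) at each of days 0, 4, 7 and 10 of EB differentiation, so no difference between single-cell groups had a replicate and none was tested. All 16 libraries carry the strain label E14, while the study's methods give the WT and mutant lines different parental ESC lines and write the Mtf2 allele as GT/GT, so genotype and parental line cannot be told apart. Each library came from EBs pooled from culture plates, with LIF withdrawn after aggregation, and live cells were sorted singly into 384-well plates. Libraries held 202 to 347 cells and 1339722 to 3889890 UMIs (unique molecular identifiers, each counting 1 captured RNA molecule). Bulk RNA-seq was used for the same genes in 12 libraries of undifferentiated WT, Mtf2 null and Jarid2 null ESCs (4 each) and in the wild-type lines J1, JM8 and Pcl1-3 WT at days 0, 2, 4 and 7 of EB differentiation. The day 0 columns of that series carry the word mono and those of later days eb, so day and form of culture cannot be told apart there.

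The anterior neural ectoderm is the part of the early neural plate that gives rise to the forebrain and the eyes. It forms where WNT, BMP and Nodal signals are held low by secreted antagonists. Otx2, a homeobox gene, is active in the epiblast and then marks the future forebrain and midbrain. Six3, another homeobox gene, is needed for the most anterior part of the brain and represses Wnt1 there, and Fezf2 encodes a zinc finger repressor of the forebrain. Many regulators of this kind are targets of Polycomb repressive complex 2 (PRC2), which methylates histone H3 at lysine 27. EED is a core subunit of PRC2, and MTF2 and JARID2 are accessory subunits that define its variants PRC2.1 and PRC2.2.

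Otx2 (ENSMUSG00000021848.16) lies on the minus strand of chromosome 14 from 48657677 to 48673819 and Fezf2 (ENSMUSG00000021743.6) on the same strand from 12342094 to 12348189, in the GRCm38 annotation. Six3 (ENSMUSG00000038805.10) lies on the plus strand of chromosome 17 from 85613608 to 85629302. The promoters of Six3 and Fezf2 are printed because these genes separated cluster 15 from the other clusters far more than Otx2 did and because CpG-rich promoters are a usual place of PRC2 binding. Each is the 250 bases before the RefSeq transcription start in GRCm38.p6, read 5′ to 3′ on the gene's strand with every CG in capitals, and Otx2, which has 4 such windows, is not printed.
Six3, chr17:85620584-85620833, plus strand: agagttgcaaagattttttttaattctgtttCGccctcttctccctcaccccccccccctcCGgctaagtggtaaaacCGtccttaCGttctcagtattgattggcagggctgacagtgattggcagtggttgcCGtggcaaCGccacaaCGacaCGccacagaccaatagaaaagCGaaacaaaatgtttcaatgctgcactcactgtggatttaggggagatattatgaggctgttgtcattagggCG
Fezf2, chr14:12345866-12346115, minus strand: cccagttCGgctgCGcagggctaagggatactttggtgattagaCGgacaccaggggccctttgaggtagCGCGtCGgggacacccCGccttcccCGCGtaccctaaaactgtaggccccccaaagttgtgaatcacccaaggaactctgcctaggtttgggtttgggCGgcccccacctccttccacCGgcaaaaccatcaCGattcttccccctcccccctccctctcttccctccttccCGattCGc
The Six3 window holds 10 CG dinucleotides, a number reached by 38.2% of 27025 genes with such a window. The Fezf2 window holds 14, a number reached by 29.6%, and the median over all genes was 6. Both windows fall short of 15, the minimum set here for a CG-rich window. The letters TAATCC, searched on both strands, were in neither window and in 6.38% of all windows.

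The 3 marker genes were each at their highest level in cluster 15 among the 22 clusters. Levels are given in CPM, the UMIs of a gene for every 1000000 UMIs of the cells named, with 95% Poisson intervals, and shares of cells with 95% Clopper-Pearson intervals. Both kinds of interval cover counting error only. Otx2 stood at 464 CPM (419.8 to 512) in cluster 15 and at 158 in all other cells. Six3 stood at 248 (216 to 283) against 4.22, and Fezf2 at 149 (124 to 176) against 1.01. The next highest cluster differed by gene. For Otx2 it was cluster 1, another cluster of the ectodermal class, at 416 CPM, followed by cluster 12 at 416, for Six3 it was cluster 21 at 38.3, and for Fezf2 it was cluster 11 at 11.7. The intervals of Otx2 overlapped between clusters 15, 1 and 12, while those of Six3 and Fezf2 in cluster 15 overlapped with no other cluster. These 3 genes are the markers of the label anterior neural ectoderm, and the cells were clustered on expression. Their levels thus describe the label for the cluster as a whole and do not test it.

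**Figure D1:**
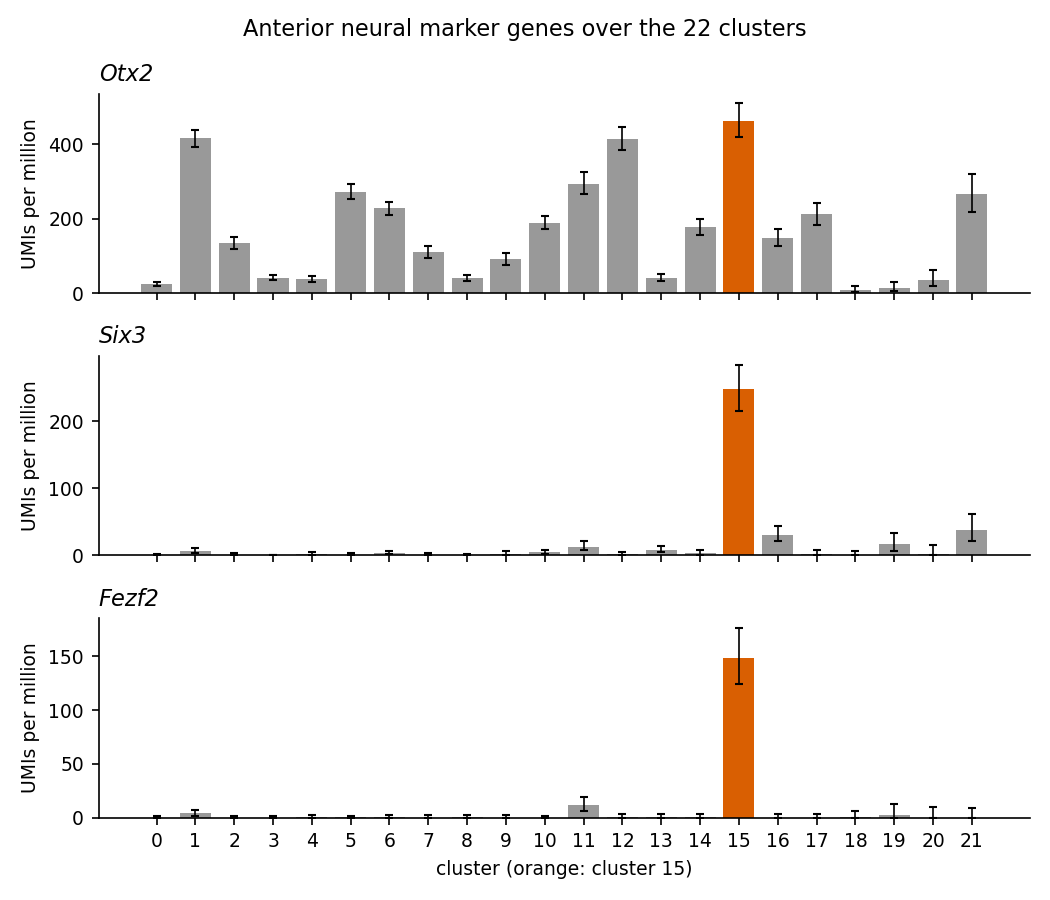
Levels of Otx2, Six3 and Fezf2 (CPM, 1 panel a gene) in each of the 22 clusters, from the pooled cells of each cluster, with 95% Poisson intervals. Cluster 15 is the highest in each panel, and clusters 1 and 12 come close to it for Otx2 only.

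Marker genes were seen in only some of the cells at this depth. At least 1 UMI of Otx2 was found in 66.9% of the 136 cells, of Six3 in 36% and of Fezf2 in 28.7%. In cluster 3, a cluster of 335 undifferentiated cells with a median of 8485 UMIs against 5860 in cluster 15, Otx2 was found in 22.1% of cells and Six3 and Fezf2 in 0. In 335 cells, 3 cells with a UMI would be 0.896%, and the Clopper-Pearson upper bound for 0 is 1.10%. With every cell thinned to 2500 UMIs, which kept 119 of the 136 cells, the cluster 15 shares were 56.3% for Otx2, 28.6% for Six3 and 23.5% for Fezf2, and Otx2 in cluster 3 was found in 9.12%. No UMI of any of the 3 genes was found in 33 cells (24.3%), and all 3 were found in 22 cells (16.2%).

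The annotation at resolution 3, which splits the cells further, kept 122 of the 136 cells together as 97.6% of a cluster of 125. Another 10 cells joined a cluster of other cells, and these had Tagln, a smooth muscle actin-binding gene, at 702 CPM and Krt8, an epithelial keratin, at 444, with 0 UMIs of Fezf2, RMST-1 and Nr2f1. A group of 4 cells had Meox1, a somite regulator, at 441 CPM and Pdgfra, a mesenchymal receptor, at 294, with 0 UMIs of Six3, Fezf2 and Sox1. Over the 122 cells alone, Otx2 stood at 508 CPM, Six3 at 280 and Fezf2 at 170, each higher than over the 136.

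Cluster 15 cells were found at days 7 and 10 and at neither earlier day. At day 7 they made up 5.06% of the WT library (16 of 316 cells, 2.92 to 8.09), 3.20% of the Mtf2 null library (11 of 344, 1.61 to 5.65) and 4.64% of the Jarid2 null library (14 of 302, 2.56 to 7.66). These 3 intervals overlap. The Eed null library of day 7 held 1 such cell of 319 (0.31%, 0.0079 to 1.73), below the WT and Jarid2 null intervals.

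At day 10 the Mtf2 null and Jarid2 null libraries held the larger shares. Cluster 15 made up 18.7% of the Mtf2 null library (60 of 321, 14.6 to 23.4) and 12.1% of the Jarid2 null library (32 of 264, 8.44 to 16.7). It made up 0.93% of the WT library (2 of 214, 0.11 to 3.34) and 0 of 202 cells of the Eed null library, where 3 cells would be 1.49% and the Clopper-Pearson upper bound is 1.81%. The WT interval lay below both mutant intervals, which overlap each other. Over days 7 and 10 together the shares were 3.40% in WT (2.03 to 5.31), 10.7% in Mtf2 null (8.43 to 13.3), 8.13% in Jarid2 null (6.01 to 10.7) and 0.19% in Eed null (0.0049 to 1.06).

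Among the 136 cells, 52.2% were Mtf2 null, 33.8% Jarid2 null, 13.2% WT and 0.74% Eed null, and 69.1% came from day 10. The clustering was made on expression, and genes such as Crabp1 and RMST-1 differ between genotypes within the cluster, so these shares describe the annotation and are not a count of a cell type fixed beforehand. Cluster 1 (341 cells) came earlier, with 84 cells at day 4, 217 at day 7 and 30 at day 10. It made up 15.5% of WT, 20.9% of Mtf2 null and 29.8% of Jarid2 null cells at day 7. Cluster 16, the ectodermal cluster that holds the Eed null cells, had 123 Eed null cells among its 134 (91.8%), 115 of the 134 from day 7. The Eed null cell in cluster 15 held 4712 UMIs, with 1 of Six3, 4 of RMST-1, 3 of Nr2f1 and 21 of Sox11 and with 0 of Otx2, Fezf2 and Eed.

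**Figure D2:**
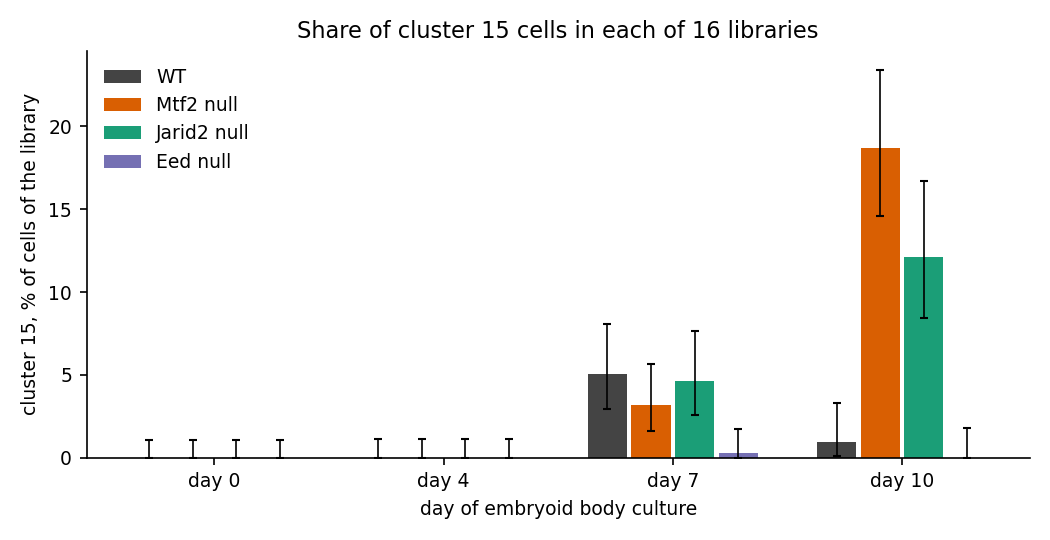
Share of cells (percent, 95% Clopper-Pearson interval) in cluster 15 in each of the 16 libraries, by genotype and day. The Mtf2 null and Jarid2 null libraries of day 10 stand highest at 18.7% and 12.1%, and no cell of days 0 or 4 belongs to the cluster.

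The genes that led cluster 15 included Six3, Fezf2 and other transcription factor genes. Of 4090 genes with a UMI in at least 25% of its cells, 276 (6.75%) stood at least 2-fold above all other cells, and of 4388 genes detected in as many of the other cells, 288 (6.56%) stood at least 2-fold below. The other cells include those of days 0 and 4, where cluster 15 had none, so day is mixed into these counts. Against other cells of days 7 and 10 alone fewer genes stood above, as given further below. Ratios are log2 of the levels after adding 10 CPM, which understates the ratio of low genes. The cells were clustered on these genes, so the values describe the cluster and test nothing. Scaling by the median ratio in place of the total shifted the ratios by -0.13 against all other cells and by -0.17 against cluster 1. The share of 2-fold differences that were higher then went from 48.6% (276 higher and 292 lower) to 37.5% (213 higher and 355 lower) against all other cells and from 59.6% (221 higher and 150 lower) to 42.6% (159 higher and 214 lower) against cluster 1, over genes detected in either group.

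The 25 highest ratios ran from 5.10 to 2.60 with a median of 3.23, and 24 of the 25 genes were at their highest in cluster 15 among all clusters, the exception being Ptn, a secreted growth factor. RMST-1, listed under that name in the table, led with 402 CPM against 2.04 in other cells. Six3, with its antisense neighbour Six3os1 (3.44), and Fezf2 (3.85) were among them. Whether the counting used strand was not given in the sources used here, so reads of Six3 and Six3os1 may not be fully separated. Transcription factors of the neural plate were Nr2f1 (3.91) and Nr2f2 (3.15), nuclear receptors of brain patterning, Zic1 (3.62), Dmrta2 (3.53), a regulator of the cortical hem, Lhx2 (3.45), needed for eye and cortex, Sox1 (3.17), a mark of neural commitment, Pax3 (2.92) and Pax6 (2.67), which acts in the eye and cortex, as well as Dach1, Zfhx4 and Zfp503. Surface and secreted products were Epha7 (3.53), an ephrin receptor, Cdh6 (3.44), a cadherin, Ildr2, Cntnap2, Igdcc3, Col2a1 (3.38), a fibrillar collagen that early neuroepithelium also makes, and Fgf15 (2.99), a growth factor of the neural tube. Crabp2 (3.23) encodes a carrier of retinoic acid, and Nnat (2.92) is an imprinted gene of the developing brain.

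These leading genes were high in most libraries, at levels that varied between them. Values by library are given for the 5 libraries with at least 10 cluster 15 cells, in the order WT day 7 (16 cells), Mtf2 null day 7 (11), Jarid2 null day 7 (14), Mtf2 null day 10 (60) and Jarid2 null day 10 (32). All 25 were at least 2-fold above the other cells of the same genotype in WT, Mtf2 null and Jarid2 null, and 23 were above the other cells of the same library by as much in all 5 libraries. The exceptions were Fgf15 in the Jarid2 null library of day 7 and Igdcc3 in the Mtf2 null library of day 7.

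RMST-1 stood at 66.5, 197, 926, 519.7 and 196 CPM in the 5 libraries. It was lowest in WT and highest in the Jarid2 null library of day 7. Nr2f1 stood at 105, 118, 39.1, 232 and 595, where the Jarid2 null library of day 7 was the lowest and that of day 10 the highest. Lhx2 stood at 266, 249, 548, 199 and 129, in the opposite order for the 2 Jarid2 null libraries. Crabp2 stood at 1017, 498, 965, 673 and 1067, within a narrower range, and Epha7 at 466, 459, 522, 225 and 466, with the Mtf2 null library of day 10 the lowest. Cdh6 stood at 333, 472, 117, 302 and 157. Its lowest values were in the 2 Jarid2 null libraries. Sox1 stood at 143, 65.6, 143, 244 and 118, highest in the Mtf2 null library of day 10.

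**Figure D3:**
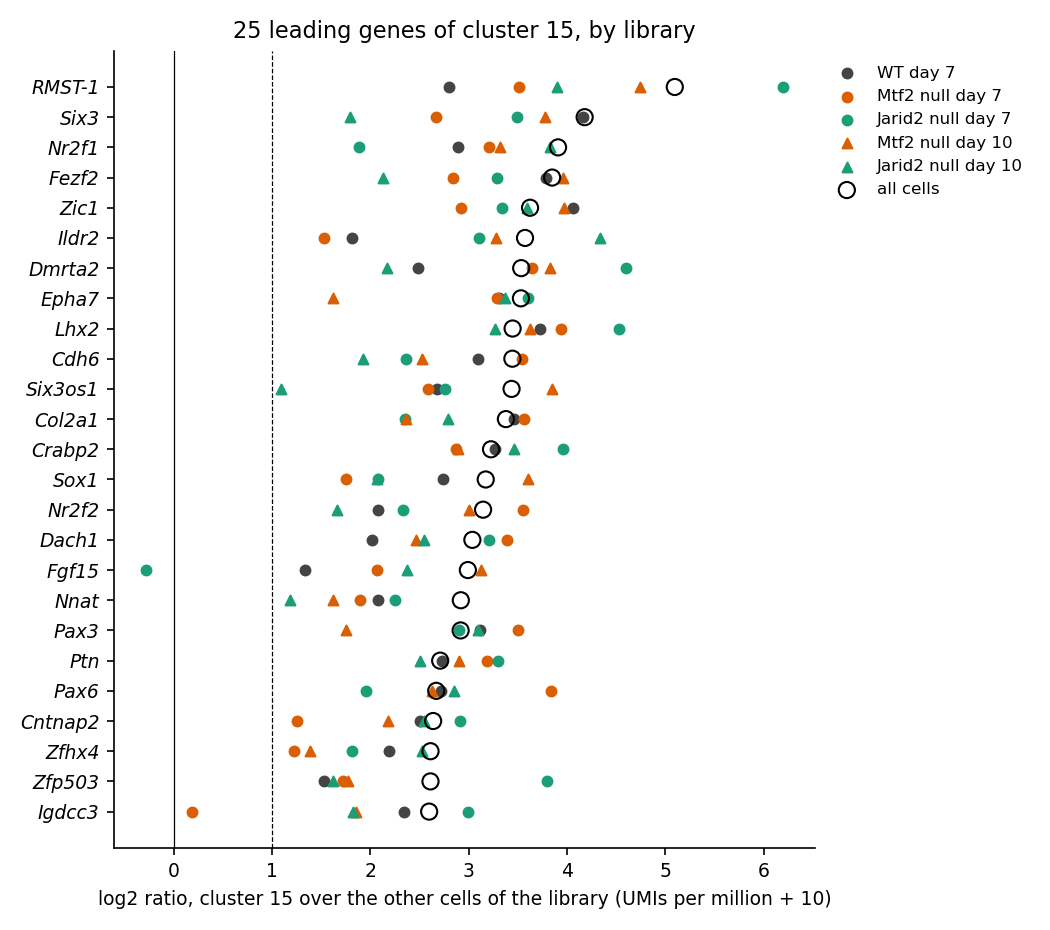
Ratio (log2, after adding 10 CPM) of the 25 leading genes in cluster 15 cells over the other cells of the same library, 1 filled point for each of the 5 libraries with at least 10 such cells, with an open circle for the ratio over all cells and a dashed line at 2-fold. All points lie right of the dashed line except Fgf15 in the Jarid2 null library of day 7 and Igdcc3 in the Mtf2 null library of day 7.

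Against cluster 1, the cluster nearest to it in Otx2, 221 of the 4090 detected genes (5.4%) stood at least 2-fold higher in cluster 15 and 150 of 4641 (3.23%) at least 2-fold lower. The difference set neural patterning genes against epiblast and pluripotency genes. Otx2 itself differed by 0.15 on the log2 scale. RMST-1 (5.22), Nr2f1 (4.39), Six3 (3.94), Fezf2 (3.50) and Crabp1 (3.39), another carrier of retinoic acid, were among the 15 highest. Dlk1, a paternally expressed gene that encodes a Notch-like surface protein, stood at 531 CPM against 25 in cluster 1, but it was 2-fold above the other cells of its library in only 1 of 5 libraries, and its levels by library were 9.50, 39.3, 248, 519.7 and 1117. Among the lowest were Tdgf1, a Nodal co-receptor, at 27.6 against 753, Utf1, an ESC chromatin gene, at 44.9 against 816, Dnmt3b, a DNA methyltransferase of the epiblast, at 164 against 1731, and Cdh1, the epithelial cadherin, at 43.8 against 430.2. Each of these 4 was at or below 249 CPM in all 5 cluster 15 libraries.

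Against cluster 16, which is nearly all Eed null, 168 of 4090 genes (4.11%) were at least 2-fold higher and 215 of 4705 (4.57%) at least 2-fold lower. Otx2 stood at 147 CPM in cluster 16, Six3 at 31.2 and Fezf2 at 0 UMIs. RMST-1 (4.03), Sox21 (3.35), a neural SoxB gene, Fgf15, Epha7, Ildr2, Dach1 and Nr2f1 (2.73) were among the 10 highest. Hba-x and Eed were also among these 10, and in neither case was any cluster 15 library 2-fold above its own other cells. H19, Gata2, S100a6, Cldn4 and Lefty2 were among the 10 lowest.

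The wider list of forebrain and eye field regulators followed the markers. Of 18 list members in the table (Vax1 and Barhl2 were not in it), 14 stood at least 2-fold above all other cells and 0 below, with a median ratio of 2.47, where 3.95% of all 15830 genes stood above, 3.71% below, and the median over all genes was 0.00. Against cluster 1, 11 of the 18 stood higher and 0 lower, with a median of 2.16, where 3.97% of all genes stood higher and 1.94% lower. Against cluster 16, 14 of the 18 stood higher and 0 lower, with a median of 1.96, where the shares of all genes were 2.88% and 3.46%. Otx1, a relative of Otx2, stood at 74.8 CPM against 2.89 in all other cells, Lhx5 at 63.3 against 0.902, Fezf1, the relative of Fezf2, at 62.2 against 0.0796, Emx2, a regulator of the dorsal telencephalon, at 48.4 against 1.01 and Six6, of the eye field, at 57.6 against 1.75. Members of the list with low levels were Rax, an eye field gene, at 12.7, Hesx1, of the anterior forebrain and pituitary, at 6.91 against 10.9, and Nkx2-1, of the ventral forebrain, at 1.15 from 1 UMI. The list was thus carried by most of its members, with Nkx2-1 near 0.

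Neural progenitor genes were high and neuronal genes were mixed. Of 20 progenitor genes, 15 stood at least 2-fold above all other cells, 13 above cluster 1 and 15 above cluster 16, with medians of 1.97, 1.41 and 1.58. Of all genes, 3.95% stood above all other cells, 3.97% above cluster 1 and 2.88% above cluster 16. Sox11, a SoxC factor of early neural cells, stood at 1549 CPM against 318 in all other cells and 559 in cluster 1. Sox2, which neural cells share with ESCs, stood at 386 against 708, lower than in the other cells. Cdh2, the neural cadherin, stood at 158 against 31.1 and Gli3, a Hedgehog pathway repressor of the dorsal forebrain, at 304 against 45. Sox11 stood at 1787, 1351, 1474, 1636 and 1302 in the 5 libraries and Gli3 at 285, 197, 365, 311 and 337, so both were high in each. Of 12 neuronal differentiation genes, 3 stood above and 1 below all other cells, with a median of 0.29. Dcx, a microtubule protein of migrating neurons, was at 2.30 CPM and Neurog1, a proneural gene, at 5.76.

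Genes of naive pluripotency stood low in cluster 15. All 12 genes of naive pluripotency stood at least 2-fold below the other cells (median -3.31), and 7 of the 12 below cluster 1 (median -1.21). Dppa5a and Zfp42 were the lowest of all detected genes, at ratios of -5.34 and -4.74. Of 13 epiblast genes, 2 stood above and 5 below the other cells, and 0 above and 8 below cluster 1 (median -2.35). Of 15 streak and mesoderm genes, 1 stood above and 4 below, of 11 endoderm genes 1 and 1, of 14 surface ectoderm genes 1 and 1, and of 12 neural crest genes 3 and 1, with 7 of the 12 above cluster 1. None of the 13 posterior Hox, Cdx and Nkx1-2 genes stood 2-fold above or below the other cells (median -0.27). Of all genes, 3.95% stood above and 3.71% below the other cells, and 3.97% above and 1.94% below cluster 1.

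Signalling genes stood on both sides of the other cells. Of all genes, 3.95% stood at least 2-fold above and 3.71% below the other cells, and 3.97% above cluster 1. Of 15 antagonists of WNT, BMP and Nodal, 6 stood at least 2-fold above all other cells and 3 below (median 0.48). Nog, a BMP antagonist, stood at 73.7 CPM against 5.31, and at 28.5, 197, 104, 83.8 and 5.61 in the 5 libraries, with the Jarid2 null library of day 10 the lowest. The WNT antagonists Frzb and Sfrp2 stood at 121 against 19.6 and at 176 against 38.4. Sfrp2 stood at 57, 105, 52.2, 153 and 399 by library, so its order was the reverse of that of Nog at day 10. Of 13 Notch pathway genes, 3 stood above and 0 below (median 0.77), including the target Hes5 at 46.1 against 1.51 and the ligand Dll1 at 47.2 against 10.7. Of 17 FGF and Hedgehog genes, 4 stood above and 2 below (median 0.21), and the ligand Shh had 0 UMIs. Of 11 retinoic acid genes, 3 stood above all other cells and 5 above cluster 1.

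No gene of the PRC2, cell cycle, p53 or stress lists stood 2-fold above the other cells. Of all genes, 3.95% stood above and 3.71% below. The PRC2 list includes Mtf2 and Jarid2, and 52.2% of the cluster's cells were Mtf2 null and 33.8% Jarid2 null. Of 12 PRC2 genes, 0 stood above and 2 below all other cells (median -0.63), and Ezh2, the catalytic subunit, stood at 322 CPM against 210.0, highest in cluster 15 by a margin smaller than counting error (next cluster 321). Of 20 cell cycle genes, 0 stood above and 1 below, of 12 p53 targets 0 and 0, and of 14 stress genes 0 and 2. In all 3 lists the median lay between -0.60 and -0.19.

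Cluster 15 was not uniform from library to library in its regional genes. Of 15 midbrain and hindbrain genes, 9 stood at least 2-fold above all other cells and 0 below (median 1.15), 9 above cluster 1 (median 1.11) and 4 above cluster 16 (median 0.75). The shares of all genes above these groups were 3.95%, 3.97% and 2.88%. The 17 forebrain regulators other than Otx2 summed to 1263 CPM (1189 to 1340) in the cluster, against 62 in all other cells. In the 5 libraries the sums were 1292, 1010, 1891, 1473 and 657. The Jarid2 null library of day 10 was the lowest, and its interval of 543 to 787 lay below the values of the other 4. The hindbrain segment (rhombomere) genes Hoxb1, Hoxa2, Hoxb2 and Egr2 summed to 19, 118, 0, 21.6 and 241 in the same order. The Jarid2 null library of day 10 was the highest (175 to 325), with an interval that overlapped that of the Mtf2 null library of day 7 (54 to 224). The midbrain genes En1, En2, Pax2, Pax5, Pax8 and Wnt1 summed to 47.5, 65.6, 143, 88.6 and 269, with the same library again the highest (199 to 357).

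Among single genes, the Jarid2 null library of day 10 was again at an extreme for all named here except Otx2. Six3 stood at 276, 91.8, 183, 378 and 33.7 CPM, lowest in the Jarid2 null library of day 10 (12.4 to 73.3) and highest in the Mtf2 null library of that day (322 to 442). Fezf2 stood at 162, 105, 130.4, 208 and 39.3, with the same lowest and highest libraries. Otx2 stood at 418, 380.4, 652, 498 and 399, and the Jarid2 null library of day 10 was second lowest and close to the others. Wnt1 stood at 0, 0, 0, 14.4 and 196 and Irx3, of the posterior forebrain and further back, at 38, 65.6, 0, 28.7 and 219, both highest in the Jarid2 null library of day 10. Hoxb1 stood at 0, 13.1, 0, 7.18 and 107 and Crabp1 at 28.5, 302, 496, 141 and 690.4, again highest there. Any UMI of the 17 forebrain regulators was found in 93.8, 90.9, 92.9, 85.0 and 56.25% of cells in the 5 libraries. A UMI of the rhombomere genes was found in 6.25, 18.2, 0, 10 and 46.9%. In the forebrain and rhombomere sums, Jarid2 null cells of day 7 and day 10 thus lay at opposite ends, and each rests on 1 library of 14 and 32 cells.

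**Figure D4:**
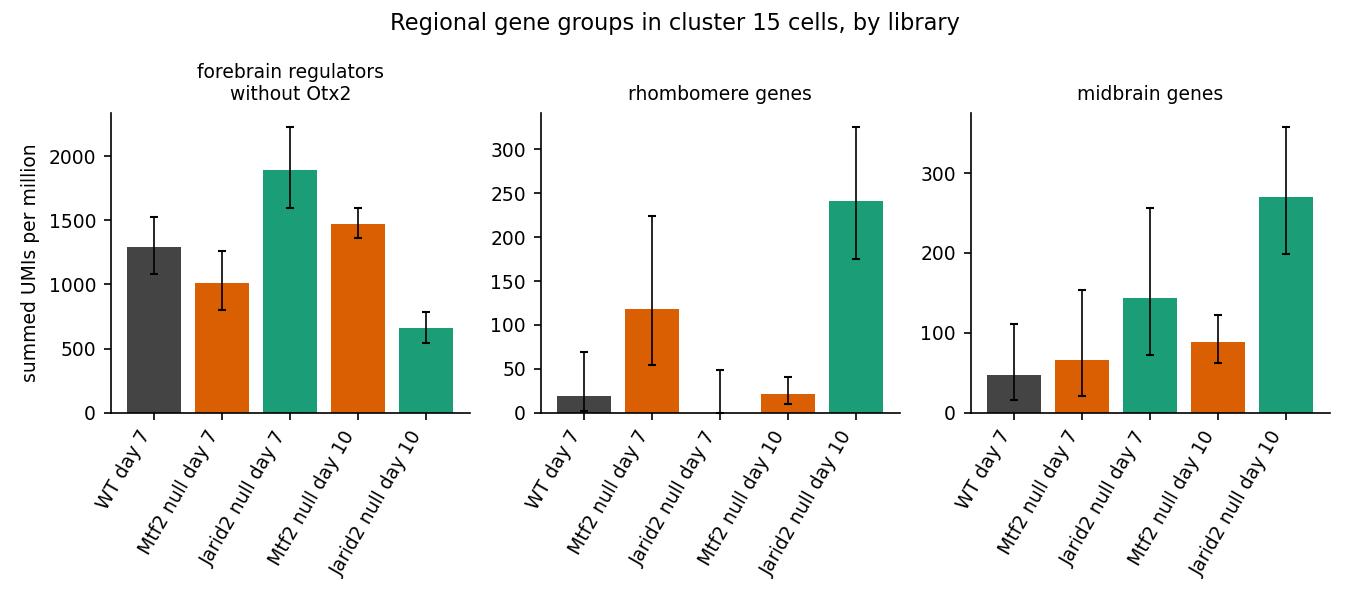
Summed levels (CPM, bars from 0 with 95% Poisson intervals) of the 17 forebrain regulators other than Otx2, 4 rhombomere genes and 6 midbrain genes in cluster 15 cells of the 5 libraries with at least 10 such cells. The Jarid2 null library of day 10 is lowest in the first panel at 657 and highest in the others at 241 and 269.

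Within cells, Fezf2 was found together with Six3 more often than with a rhombomere gene. Fezf2 was found in 23 of the 49 cells with a UMI of Six3 (46.9%) and in 16 of the 87 without (18.4%), and with cells thinned to 2500 UMIs in 12 of 34 (35.3%) and 16 of 85 (18.8%). Irx3 was found in 3 of the 49 (6.12%) and in 28 of the 87 (32.2%). After thinning this was 3 of 34 (8.82%) and 13 of 85 (15.3%), so the gap in Irx3 was narrower at equal depth. Fezf2 was found in 0 of the 25 cells with a rhombomere gene and in 39 of the 111 without (35.1%), and after thinning in 0 of 11 and in 28 of 108 (25.9%). Nr2f1 was found in 15 of the 25 and in 39 of the 111. Cells with a UMI of Six3 had a median of 7019 UMIs against 5282 without, and cells with a rhombomere gene 6201 against 5781. Of the 25 cells with a rhombomere gene, 15 came from the Jarid2 null library of day 10, where the level of Fezf2 was lowest. Differences between libraries are thus mixed into these counts. These cells share libraries, so the counts describe the cluster and compare no genotypes.

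Within cluster 15 some of the genes furthest apart between genotypes were also apart outside it. Hprt, a purine salvage enzyme on the X chromosome, had 0 UMIs in the 18 WT cells, where 3 UMIs would be 26.1 CPM and the Poisson upper bound is 32.1, and stood at 205 in Mtf2 null and 204 in Jarid2 null cells. In all other cells it stood at 1.99 in WT, 482 in Mtf2 null and 533 in Jarid2 null. Rplp1, a ribosomal protein gene, stood at 348, 3139 and 2861 in cluster 15 and at 331, 3668 and 3673 outside. Meg3, a maternally expressed noncoding RNA, stood at 504 in WT, 24.3 in Mtf2 null and 31.4 in Jarid2 null cells of cluster 15, and at 32.9 and 37.8 in the mutant cells outside it. These differences between the WT and mutant lines were present in the other cells too, and since the lines differ in parental origin, the mutation and the line cannot be told apart.

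Of 2959 genes with at least 50 UMIs in Mtf2 null and WT cells together, 168 (5.68%) were at least 2-fold higher and 61 (2.06%) at least 2-fold lower in Mtf2 null. Of 1753 such genes for Jarid2 null, 94 (5.36%) were higher and 41 (2.34%) lower. Plagl1, an imprinted zinc finger gene, had 0 UMIs in WT, with the same upper bound of 32.1 CPM, and stood at 192 in Mtf2 null cells (156 to 235). By day, its Mtf2 null level was 26.2 at day 7, under that bound, and 223 at day 10. Of the 18 WT cells, 16 came from day 7. RMST-1 stood at 60.8 in WT, from 7 UMIs, and at 416 in Jarid2 null cells (341 to 503), and Crabp1 at 69.5 and 632. Of the targeted genes, Mtf2 stood at 243 in WT and 68.8 in Mtf2 null cells. Jarid2 stood at 371, 197, 183, 232 and 219 in the 5 libraries, so its transcript was still counted in the Jarid2 null libraries.

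Between the 2 mutants, of 3629 genes with at least 50 UMIs in both together, 44 (1.21%) were at least 2-fold higher in Jarid2 null and 84 (2.31%) at least 2-fold lower. Irx3 was higher in Jarid2 null at 153 against 34.4, as was Lars2, a mitochondrial tRNA synthetase gene, at 973 against 174. Six3 was lower at 78.5 against 334, Six3os1 at 27.5 against 170.1 and Plagl1 at 27.5 against 192. These values pool days 7 and 10. At day 7 alone Irx3 was at 0 in Jarid2 null against 65.6 in Mtf2 null, and Six3os1 at 65.2 against 52.5. Six3 was also higher in Jarid2 null at day 7, as its levels by library above show. Lars2 and Plagl1 kept their direction on each day. The WT side rests on 18 cells, 16 of them from day 7, while 60 of the Mtf2 null and 32 of the Jarid2 null cells came from day 10, so day and genotype move together here.

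Hba-x, an embryonic globin of red cells, was found in 55.9% of cluster 15 cells at 192 CPM. Across libraries its share of cells was 15.8, 27, 0, 82.2 and 51.1% over all cells in the same order as above, and 18.8, 27.3, 0, 86.7 and 50% over cluster 15 cells. In the WT library of day 10 it was 98.1% of all cells and both cluster 15 cells. Its level was lower in cluster 15 than in the whole library wherever it was counted in cluster 15, at 28.5 against 171 CPM in WT and 39.3 against 438 in Mtf2 null at day 7, and at 307 against 4072 in Mtf2 null and 112 against 1301 in Jarid2 null at day 10. The shares of cells were thus close to those of the library and the levels below them. Its part in the levels of other genes was not tested.

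Bulk RNA-seq of undifferentiated ESCs shows the same genes before differentiation. The 12 libraries (9883730 to 16365800 counts) were compared by edgeR's quasi-likelihood test with Benjamini-Hochberg adjustment, calling a gene at an adjusted p under 0.001 and a fold over 2. Nothing says that they came from separate cultures, and the study calls the duplicates technical, so the p-values measure the spread between libraries. Mtf2 null ESCs had 1350 genes higher (8.11%) and 1094 lower (6.57%) of 16655 tested. Of the 25 leading genes of cluster 15, 12 passed the filter on low counts, 1 was called higher and 2 lower, and the median over the 12 was -0.12 against -0.04 over all genes.

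Nnat stood at 0.096, 0.35, 0 and 0.094 CPM (here counts for every 1000000 of the library) in the 4 WT libraries and at 7.26, 10.4, 8.14 and 10.2 in the Mtf2 null ones. The groups did not overlap, and Nnat rose by 5.93 (log2, SE 0.40, adjusted p = 8.8e-09). Fgf15 stood at 12.0, 9.60, 12.5 and 8.77 CPM in WT, at 2.36, 3.31, 2.47 and 2.93 in Mtf2 null and at 4.58, 6.13, 5.30 and 4.00 in Jarid2 null libraries. WT was the highest, with no overlap. Fgf15 fell by 1.95 in Mtf2 null (SE 0.18, adjusted p = 3.6e-07) and by 1.10 in Jarid2 null (SE 0.17, adjusted p = 0.0004) on the log2 scale. Igdcc3 fell by 1.05 in Mtf2 null (SE 0.20, adjusted p = 0.00038), from 6.21 ± 1.07 to 2.98 ± 0.63 CPM (SD, n = 4 libraries). The Jarid2 null call of Fgf15 was lost when WT replicate 1 or Jarid2 null replicate 1 of either library series, or Jarid2 null replicate 2 of the endoderm series, was left out (edgeR adjusted p from 0.0013 to 0.0025). The Mtf2 null call of Igdcc3 was lost without WT replicate 1 or Mtf2 null replicate 1 of either series, or without Mtf2 null replicate 2 of the mesoderm series (edgeR adjusted p from 0.0010 to 0.0019).

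In cluster 15 itself, Fgf15 stood at 399, 289, 65.2, 481 and 292 CPM in the 5 libraries, with Mtf2 null at day 10 the highest, and Nnat at 76 in WT, the lowest, at 393 and 209 in the Mtf2 null and Jarid2 null libraries of day 7, at 236 in Jarid2 null at day 10, and highest in Mtf2 null at day 10 (540.2 to 693). Otx2 was at 1.95 ± 0.50 CPM in WT ESCs and differed by -0.51 in Mtf2 null (log2, SE 0.27, adjusted p = 0.13) and by -0.32 in Jarid2 null (SE 0.26, adjusted p = 0.44), neither called, and the groups overlapped. Six3 had 0 to 5 counts and Fezf2 0 in every library, and neither was tested. Jarid2 null ESCs had 98 genes higher (0.588%) and 93 lower (0.558%), with 0 of the 12 leading genes higher and Fgf15 the 1 lower (list median 0.12, all genes -0.01). Mtf2 fell by 3.80 in Mtf2 null (from 453 ± 71.3 to 32.5 ± 1.93 CPM), whereas Jarid2 differed by -0.41 in Jarid2 null (SE 0.10, adjusted p = 0.0073), from 407 ± 52.6 to 306 ± 10.7, and was not called. The part of Jarid2 removed in this line is not given in the sources used here, so its counts do not check the label.

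In the wild-type lines, 10 of the leading genes were higher in EBs of day 7 than in the cultures of day 0. The deposited values were scaled to 1000000 per column and averaged over the columns of a sample, which left 1 value for each of the 3 lines and days. Days 7 and 0 were compared with limma on log2(value + 1), with the line as a block, so that fold changes of low genes are understated. Of 15022 genes tested, 1178 (7.84%) were higher and 1083 (7.21%) lower at day 7 at an adjusted p under 0.05 and a fold over 2. Of the 25 leading genes, 17 passed the filter, 10 were called higher and 0 lower, with a median of 1.51 against -0.06 over all genes. The 25 were chosen as high in cells of days 7 and 10 against cells of all days. Some, such as Nr2f2 and Cdh6, were below 1 in each line at day 0 and could not be called lower. The calls thus describe these genes and are no separate support for the cluster. A bulk level cannot tell fewer cells of a type from less RNA per cell.

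Nr2f2 stood at 0.18, 0 and 0.069 at day 0 and at 35.8, 22.0 and 19.2 at day 7 in J1, JM8 and Pcl1-3 WT. It rose in 3 of 3 lines, by 4.58 (log2, SE 0.27, limma adjusted p = 9.6e-05). Cdh6 stood at 0.55, 0.14 and 0.52 at day 0 and at 109.7, 23.6 and 8.61 at day 7, a wide range between lines, and rose by 4.42 (SE 0.59, limma adjusted p = 0.0022). The other 8 called were Zfhx4, Igdcc3, Zfp503, Ptn, Nnat, Col2a1, Epha7 and Dmrta2, from 3.34 down to 1.20. Epha7 was higher in 2 of 3 lines. Without JM8, only Nr2f2 of the leading genes was called, among 6 genes in all, and with days 0 and 7 alone in the fit 2 were.

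The markers themselves were not called in these EBs. Otx2 stood at 43.1, 13.6 and 1.29 at day 0, at 42.8, 108 and 95.9 at day 4 and at 9.15, 38.7 and 53.9 at day 7. It was lower at day 7 than at day 0 in J1 and higher in the other lines, and differed by 1.30 on average (log2, SE 1.18, limma adjusted p = 0.43). Six3 reached 0.71, 1.37 and 0.45 at day 7 and Fezf2 0.30, 0.32 and 1.09, below the filter. Of the forebrain list, 5 genes passed the filter and 0 were called in either direction. Of the 12 naive pluripotency genes, 0 were called higher and 6 lower (median -1.93).

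**Figure D5:**
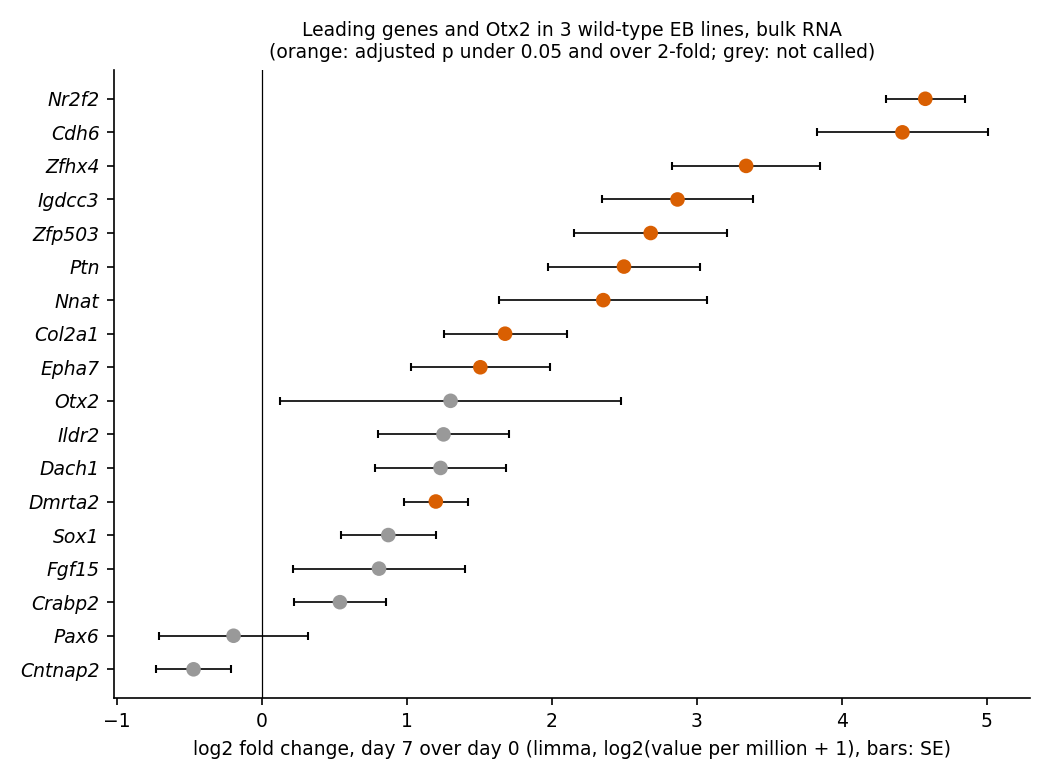
Difference between day 7 and day 0 (log2 of value + 1, limma, bars 1 SE) over the wild-type EB lines J1, JM8 and Pcl1-3 WT for the 17 leading genes tested and for Otx2, in orange where called. The 10 called genes run from Dmrta2 at 1.20 to Nr2f2 at 4.58, and Otx2 at 1.30 has the widest error bar.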

How the data were processed

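Single-cell libraries were made by the authors with a plate method, aligned with Bowtie2 to GRCm38/mm10 and counted with HTSeq, and the deposited table holds whole UMI counts for 15830 genes. All 4949 cells of the table have at least 720 genes, above the minimum of 500 that the methods state, and the cell numbers that the methods give sum to fewer cells than the table holds. The authors corrected for library and clustered with Seurat, and their cluster numbers were used as deposited. No doublet caller was run. All 384 well barcodes occur in more than 1 library, by the plate design, and its cells of cluster 15 carried 118 of them, 16 in more than 1 library. The deposited bulk tables of undifferentiated ESCs hold estimated counts from Salmon, rounded here to whole counts. The deposited EB table is a signal, counts divided by DESeq2 size factors by the authors. Its steps gave back whole reads for 100% of values (within 0.02 of a whole number; 3005710 to 8113700 reads in the 23 columns used). They were scaled here to 1000000 per column. Columns of 1 sample that differ in their r number were averaged and counted once, and the headers do not say whether r is a run or a library. A further 59 columns of these tables were not used here.

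Levels were summed UMIs scaled to 1000000 (CPM), and ratios added a pseudocount of 10. Tests used R 4.3.3 with edgeR 4.0.16 (library series as a covariate) and limma 3.58.1 (genes at 1 or more in at least 3 samples), and the alternative DESeq2 1.42.0. Single-cell sums used Python 3.11.15, numpy 2.4.6, pandas 2.3.3 and scipy 1.17.1, and figures matplotlib 3.10.9. On simulated data with 200 genes changed, edgeR's test recovered 35.8% of 2-fold, 70.2% of 3-fold and 78.8% of 4-fold changes for Mtf2 null against WT (16279 genes), and limma recovered 29.9, 64.2 and 81.8% for the EB lines (15022 genes).

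The lines of the EB table deviated together (correlations from 0.259 to 0.764 between days of a line), so they were kept as a block, while the replicate numbers of the undifferentiated libraries did not pair them. In those libraries duplicates differed beyond sampling noise and were counted separately. The genes named were the 3 markers, the PRC2 genes targeted, the members of 20 gene lists, and the genes with the largest ratios in each comparison (25, 15 and 10 higher, 10 lower, 5 in each direction between genotypes) among genes with a UMI in 25% of cells or 50 UMIs in both groups, and the 10 genes whose levels over clusters correlate best with Six3. The rhombomere and midbrain groups are subsets of 1 of the lists. Some genes are not reported here. Members and lists were chosen with earlier results of these data known. Promoters came from RefSeq. As 19 of the 25 leading genes matched a promoter, under 80%, a comparison of promoters over the list was void.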

Additional observations from a re-analysis of the deposited data

Results flagged for a closer look

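In 48 groups of 4 undifferentiated libraries (16 genes), 2 groups held a library apart from its others by Dixon's test at 95%, which chance gives in about 1 group of 20. Epha7 stood at 1.97 CPM in endoderm-series replicate 1 of Mtf2 null, where the others stood at 2.73, 2.79 and 2.85. Crabp2 stood at 0.754 in endoderm-series replicate 2 of WT, where the others stood at 1.15, 1.17 and 1.22.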

How the results depend on the processing

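Of 110 recomputed summaries, 84 stayed within their limits and 26 moved. Of the log2 changes of single genes, 710 kept their direction and call, 40 lost the call, 9 gained it and 0 reversed. Counts of genes at least 2-fold above all other cells, cluster 1 and cluster 16 became 113, 96 and 67 with a pseudocount of 50, 535, 508 and 382 with detection in 10% of cells, and 135, 100 and 95 with cells thinned to 2500 UMIs. Against other cells of days 7 and 10 alone 98 genes stood above. Against cluster 16 without Eed null cells the count was 492, where only 2 WT, 5 Mtf2 null and 4 Jarid2 null cells remained for comparison. The level of Six3 was 133 CPM without Mtf2 null cells and 318 without Jarid2 null cells, and that of Fezf2 90.8 and 183, or 185 as a mean over cells. At 4000 UMIs, 38.1% of cells had a UMI of Six3. Over the 122 cells that stay together at resolution 3, chosen after seeing the data, the counts were 292, 225 and 185.

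Calls between undifferentiated Jarid2 null and WT numbered 364 without a filter, 14 in the mesoderm series alone and 71 in the endoderm series alone, and for Mtf2 null 1625 in the mesoderm series alone. Leaving out 1 library gave 139 to 185 calls for Jarid2 null and 2195 to 2466 for Mtf2 null, and the replicate block 176 and 2394. In the EB lines the 2261 calls became 1348 with a pseudocount of 4, 1188 with no replicate block and 283 with days 0 and 7 alone, and 6 to 3101 with 1 line left out (6 without JM8, 1178 without J1). The causes were not tested. The count test on recovered reads, added after seeing the data, made 2240. The WT levels rest on 16 cells of day 7 and 2 of day 10, and 17 cells fell below 2500 UMIs.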

Other observations

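Over the 22 clusters, the genes whose levels followed Six3 most closely (Pearson correlation of log2 levels, a description over clusters that share libraries) were Dmrta1 (0.93), Six3os1 (0.92), Scn4b (0.91, from 3 UMIs in cluster 15), Npas3 (0.91) and Pax3 (0.89). Ccdc177, RMST-1, Fam181b and Lrrn1 followed at 0.88 each and AC154683.1 at 0.87. Dmrta1, a relative of Dmrta2, was found in 8.82% of cluster 15 cells at 26.5 CPM, where the next highest cluster reached 12.0. Fam181b stood at 85.2 CPM, where the next highest cluster reached 21.1, and it had 0 UMIs in the WT cells of cluster 15 and 135.7 CPM in the Mtf2 null cells.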
